A study of Mus musculus with 10 samples.

Results

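Basal cells sorted from mammary glands of Pygo2 SSKO mice were compared with luminal cells sorted from control mice, to ask which lineage genes still separate the mutant basal cells from luminal cells and where that separation is small. The members are the 3 SSKO basal and the 3 control luminal arrays, chosen by their titles alone, 6 of 10 arrays in all. The other 4 arrays, of control basal cells, serve as the reference for the normal size of each gap. All animals were virgin females of 8 to 12 weeks, and the control and SSKO mice were littermates. After collagenase digestion, cells that stained for CD31, CD45 or TER119, which mark endothelial, white blood and red blood cells, were gated out. Basal cells were CD29-high and CD24-positive, and the labels name this gate for both stem and basal cells. Luminal cells were CD29-low, CD24-positive and CD61-negative, which the series text calls mature. The labels do not say what SSKO stands for or which promoter drives the deletion, while the title describes the mutant cells as Pygo2-null. No SSKO luminal arrays were analysed here, so genotype and cell type differ together in this comparison. The samples are called biological replicates without the number of animals behind each, so p-values reflect only how these samples vary.

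The mammary duct has a bilayered epithelium. Outer basal cells make keratins 5 and 14, attach to the basement membrane and contract in response to oxytocin to eject milk, and they include the cells with stem activity in transplants. Inner luminal cells line the duct with tight junctions and simple keratins, and comprise hormone-sensing cells, which carry oestrogen and progesterone receptors, and progenitor and alveolar cells that go on to make milk. Pygo2 is a co-factor of beta-catenin in Wnt signalling, and its PHD finger reads a methyl mark on histone H3.

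Levels are given as log2(intensity + 16) of 1 probe set per gene, and a gap is the SSKO basal mean minus the luminal mean on that scale, on which changes of dim genes come out too small. Of 15815 genes tested, 6682 (42.3%) differed at a limma adjusted p under 0.05, 3000 (19%) of them higher in SSKO basal and 3682 (23.3%) higher in luminal cells. A gap is called wide here when it passed that test and reached 2 log2 units, or 4-fold, which 1094 genes (6.92%) did, 717 (4.53%) toward SSKO basal and 377 (2.38%) toward luminal cells. A gap is called narrow when its 95% interval lay wholly between -1 and 1, within 2-fold either way, as for 10090 genes (63.8%), and a narrow gap may still pass the test. The median over all genes was -0.03. The 3 arrays of one group lay wholly above or below those of the other for 8610 genes (54.4%). Array medians lay between 205 and 228 intensity units.

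Some arrays stood apart within their group. Luminal array 3 carried more basal signal than the other luminal arrays. Its Spearman correlation with the SSKO basal arrays was 0.790 to 0.800, against 0.749 to 0.760 for luminal array 1 and 0.742 to 0.748 for luminal array 2. SSKO basal arrays 1 and 3 carried more endothelial signal than SSKO basal array 2, and control basal array 1 was also high. Values without luminal array 3 or SSKO basal arrays 1 and 3 are given beside the results whose size they moved most. In bulk samples, fewer cells of a type and less RNA per cell cannot be told apart.

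Pygo2 itself was lower in the SSKO basal arrays. Its log2 values (probe set 10493530) were 6.99, 5.94 and 5.86 in SSKO basal arrays 1 to 3 and 8.50, 7.90 and 8.53 in luminal arrays 1 to 3. No SSKO array reached a luminal array. The gap was -2.05 (SE 0.34, n = 3 each, limma adjusted p = 0.000533), while control basal and luminal cells differed by 0.29. The SSKO mean of 6.26 fell short of 6.74, the dim level under which probe sets were left out of the tests, and the true fall may be larger. It is not known whether this probe set falls within the deleted stretch, and it checks the genotype only if it does.

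Genes behind the sort gates were read first. Itgb1, which encodes CD29, was 0.79 log2 units higher in SSKO basal cells, Itgb3, which encodes CD61, was 2.31 higher, and Cd24a was 2.32-fold lower in SSKO basal than in luminal cells, with limma adjusted p = 0.000577, 2.72e-05 and 2.95e-05. These genes chose the cells, so their gaps are no finding. Ptprc, which encodes CD45, lay between 6.66 and 7.02 in all 6 arrays. Pecam1, which encodes CD31, was 11.31, 8.32 and 10.41 in the SSKO basal arrays against 8.79, 8.51 and 8.35 in the luminal arrays, a gap of 1.47 (limma adjusted p = 0.101). Arrays 1 and 3 made that gap, and array 2 lay among the luminal values. Without SSKO basal array 2, which is the low one, Pecam1 passed at 2.31 (adjusted p = 0.00409).

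The lineage genes fell into 9 lists of 132 genes, of which 125 were tested. The other 7 had no probe set of their own, and no lineage gene was dropped as dim. Of the 125, 104 passed the test and 73 had wide gaps, against 42.3% and 6.92% of all genes. Among 64 tested basal genes, 55 were higher in SSKO basal cells, 1 was lower and 43 had wide gaps, with a median gap of 3.18. Among 61 tested luminal genes, 44 were higher in luminal cells, 4 were higher in SSKO basal cells and 30 had wide gaps, with a median of -1.98. These counts include 2 genes behind the sort gates, whose gaps are no finding. Itgb1 is among the 55 basal genes, and Itgb3 is among the 4 luminal list members higher in SSKO basal cells and the 30 wide gaps. Of the 104 calls, 101 held when any 1 of the 10 arrays was left out. The 3 exceptions were the integrin Itgb4, the transcription factor Sox9 and the collagen Col7a1, which are taken up with their lists.

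**Figure D1:**
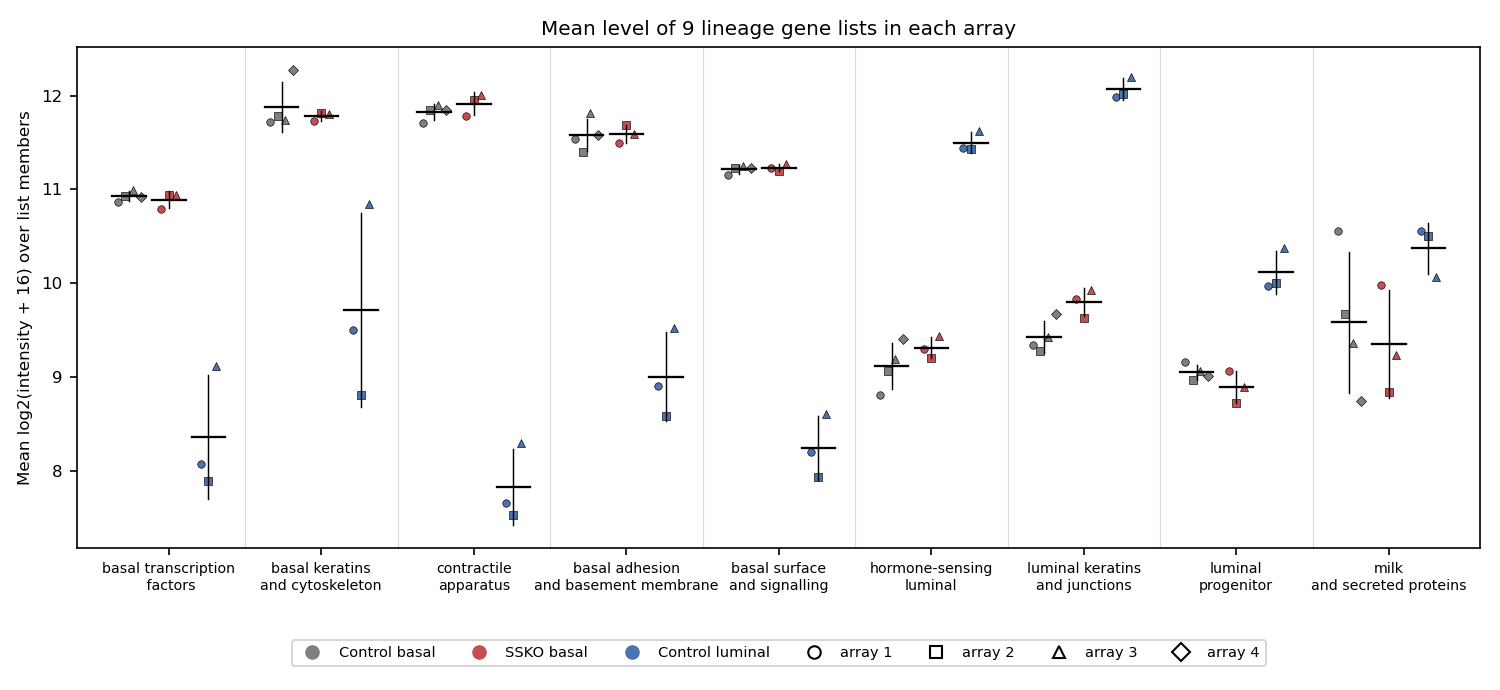
Mean log2(intensity + 16) over the tested members of each of the 9 lineage lists, with 1 point per array, a horizontal bar for the group mean and a vertical line for its SD (control basal n = 4, SSKO basal n = 3, luminal n = 3). SSKO basal arrays sit above luminal arrays in the 5 basal lists and below them in the 4 luminal lists, and luminal array 3 is the highest luminal array in all 5 basal lists.

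Of 10 basal transcription factors tested, 6 were higher in SSKO basal cells, all 6 with wide gaps, and 4 did not pass, with gaps from 0.34 to 0.49. Id4, an inhibitor of basic helix-loop-helix factors, was 10.64, 11.01 and 10.76 in SSKO basal and 5.88, 5.38 and 5.73 in luminal arrays. Its gap of 5.14 (SE 0.21, 35.3-fold, limma adjusted p = 2.59e-08) was the widest of the list, and the luminal mean of 5.66 lay under the dim level, so the gap may be larger. Snai2, the zinc finger repressor Slug, was 11.84, 12.12 and 12.52 against 6.51, 6.24 and 9.23. The SSKO arrays lay above every luminal array for Snai2, but luminal array 3 was well above the other luminal arrays, and the gap of 4.83 (SE 0.62, adjusted p = 8.49e-05) became 5.78 without it. The homeobox gene Irx4 showed the same layout at 11.17, 11.45 and 11.35 against 6.02, 5.28 and 8.34, with a gap of 4.77 (adjusted p = 5.15e-05) that became 5.67 without luminal array 3. Trp63, the p53 relative that defines basal epithelium, was 10.90, 11.22 and 11.08 in SSKO basal and 6.86, 7.60 and 9.98 in luminal arrays. Its gap of 2.92 (SE 0.59, adjusted p = 0.00202) was 3.05 in control basal cells and became 3.84 without luminal array 3. Mef2c and Egr2 made up the 6, with gaps of 2.97 and 3.06.

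The factors with small gaps included regulators of contractile genes. Srf, serum response factor, was 10.99, 11.48 and 11.42 in SSKO basal and 10.67, 10.26 and 11.49 in luminal arrays, a gap of 0.49 (adjusted p = 0.171) with overlapping groups. Without luminal array 3 the gap was 0.83 and passed (adjusted p = 0.00663). Myocd, the myocardin co-activator of Srf, had a narrow gap of 0.41 (95% interval 0.03 to 0.79, adjusted p = 0.0784), which passed without SSKO basal array 1 or without luminal array 2 (adjusted p = 0.0428 and 0.0494). Runx1, which is active in both layers of the epithelium, was 12.86, 13.10 and 13.11 against 12.73, 12.40 and 12.91, a narrow gap of 0.34 (95% interval -0.01 to 0.69) that passed only without luminal array 3 (0.46, adjusted p = 0.0493) among the fits that left out 1 array. Tcf4, an E protein, had a narrow gap of 0.36 (95% interval -0.08 to 0.80).

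The defining basal keratins were at one level in all SSKO arrays and spread widely among the luminal arrays. Krt5 (probe set 10432785) was 13.15, 13.25 and 13.10 in SSKO basal and 9.06, 7.70 and 11.68 in luminal arrays. Its partner Krt14 was 13.23, 13.34 and 13.24 against 8.82, 7.78 and 11.86, and Krt17 was 13.47, 13.49 and 13.41 against 9.21, 8.20 and 11.32. In each of the 3 keratins luminal array 3 held the highest luminal value by at least 2 log2 units, and even there the SSKO arrays stayed above it. The gaps were 3.69 (SE 0.72, adjusted p = 0.00160) for Krt5, 3.78 (SE 0.75, 0.00177) for Krt14 and 3.88 (SE 0.57, 0.000223) for Krt17. Without luminal array 3 they became 4.79, 4.97 and 4.75. Whether luminal array 3 holds cells of the basal gate was not tested. Control basal cells had gaps of 3.82, 3.79 and 3.82. The intermediate filament Vim and the small heat shock protein Cryab also had wide gaps, at 2.89 and 2.30. The plakin cytolinkers did not separate the cells the same way. Dst, which anchors keratin at hemidesmosomes, had a narrow gap of 0.05 (95% interval -0.40 to 0.49), and Plec, plectin, was 1.49-fold lower in SSKO basal cells (-0.58, SE 0.14, adjusted p = 0.00514), the only basal list member below the luminal level that passed. Krt16, a keratin induced by stress, was 7.96, 7.83 and 7.93 against 6.73, 6.65 and 8.82, with overlapping groups and a gap of 0.51 (adjusted p = 0.660).

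The contractile apparatus had the largest median gap of the 9 lists. All 15 members tested were higher in SSKO basal cells with no overlap, 13 had wide gaps, and the median gap was 4.12, against 4.28 for control basal cells. The smooth muscle gamma actin Actg2 was 12.05, 12.35 and 12.50 in SSKO basal and 5.80, 6.18 and 6.69 in luminal arrays. Its gap of 6.08 (SE 0.24, 67.7-fold, adjusted p = 2.59e-08) was the largest rise among all 15815 genes. Its luminal mean of 6.22 was under the dim level. The smooth muscle myosin heavy chain Myh11 was 12.78, 12.98 and 12.93 against 7.02, 6.35 and 8.0, a gap of 5.77 (SE 0.31, adjusted p = 1.42e-07), and calponin, Cnn1, was 13.21, 13.21 and 13.16 against 7.97, 6.87 and 8.30, a gap of 5.48 (SE 0.28, 1.07e-07). In all 3 genes the SSKO arrays lay within 1 log2 unit of each other. The alpha actin Acta2 had a gap of 3.53 and the oxytocin receptor Oxtr, which receives the signal to contract, one of 4.12. The smallest gaps of the list were those of tropomyosin Tpm1, at 1.22 (SE 0.11, 2.33-fold, adjusted p = 5.26e-06), and of desmin, Des, at 1.54 (SE 0.25, 0.000442). Tpm1 was 12.54, 12.67 and 12.65 against 11.43, 11.33 and 11.43, so its groups were tight and well apart even though the gap was small. Without luminal array 3 the median gap of the list was 4.57.

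Promoters of contractile genes are known to carry the CArG box, the element that serum response factor binds. RefSeq promoter windows of build GRCm38.p6, 250 bases before to 50 after the start, were searched for it on both strands. Of the 15 contractile genes 12 had such a window, and 1 of the 12 (8.3%) held a match, as did 2 of 6 basal transcription factors with a window, Egr2 and Srf. Among all genes with a window, 488 of 27025 (1.81%) held one. The windows of Myl9, the myosin regulatory light chain, with a gap of 5.27, and of Egr2, with a gap of 3.06, are shown. They were picked because each holds a match and both genes have wide gaps, and Myl9 is the 1 contractile gene with a match. Each line holds the 250 bases upstream of a start site on the plus strand, at chr2:156775214-156775463 for Myl9 and at chr10:67537316-67537565 for Egr2, and capitals mark the CArG box. The match lies 161 to 152 bases before the start of Myl9 and 72 to 63 bases before that of Egr2, which has 5 listed promoters, of which the first with a match is shown. A match is no measure of binding.
Myl9: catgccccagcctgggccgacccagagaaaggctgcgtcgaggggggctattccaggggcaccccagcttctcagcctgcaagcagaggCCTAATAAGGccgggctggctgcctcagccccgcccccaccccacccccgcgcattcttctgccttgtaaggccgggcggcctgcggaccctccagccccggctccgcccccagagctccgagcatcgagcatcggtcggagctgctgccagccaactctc
Egr2: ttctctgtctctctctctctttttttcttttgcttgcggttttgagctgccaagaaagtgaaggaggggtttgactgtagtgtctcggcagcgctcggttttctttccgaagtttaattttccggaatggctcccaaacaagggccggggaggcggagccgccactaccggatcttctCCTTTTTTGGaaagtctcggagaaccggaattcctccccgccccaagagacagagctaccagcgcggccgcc

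Genes for adhesion and for the basement membrane were also higher in SSKO basal cells, 14 of 15 tested, 8 of them with wide gaps, and the median gap was 3.41. The gate gene Itgb1 is counted among the 14. P-cadherin, Cdh3, was 12.14, 12.31 and 12.26 in SSKO basal and 7.14, 6.39 and 9.16 in luminal arrays, a gap of 4.67 (SE 0.51, adjusted p = 2.73e-05) that was 5.47 without luminal array 3. The type IV collagen Col4a2, a network protein of the basement membrane, was 11.57, 11.96 and 11.68 against 7.31, 7.04 and 7.30, a gap of 4.52 (SE 0.17, 23.0-fold, 2.35e-08). Luminal array 3 did not stand out in Col4a2. The hemidesmosome collagen Col17a1 was 12.06, 12.34 and 12.28 against 7.64, 6.17 and 9.54, a gap of 4.44 (SE 0.61, 0.000143) that was 5.32 without luminal array 3. The laminin chains Lama1, Lama3 and Lamb3 had gaps of 4.31, 3.70 and 3.41. The integrin subunits Itga6 and Itgb4, which together bind laminin, had narrow gaps. Itga6 was 12.63, 12.84 and 12.72 against 12.05, 11.90 and 12.27, a narrow gap of 0.66 (95% interval 0.38 to 0.94, adjusted p = 0.00144) with no overlap. Itgb4, its partner in hemidesmosomes, was 11.53, 11.58 and 11.35 against 11.01, 10.72 and 11.16, also narrow at 0.52 (95% interval 0.18 to 0.86, adjusted p = 0.0185). The Itgb4 call ended without SSKO basal array 1 or 2 or luminal array 2 (adjusted p = 0.0552, 0.0664 and 0.0822) and after centring of the arrays (0.0547). Itga3 had a gap of 1.19, and the desmosomal Dsc3, at 1.27 (adjusted p = 0.346), passed only without luminal array 3, at 2.46 (0.0299). Col7a1, the anchoring fibril collagen, had a gap of 0.82 (adjusted p = 0.0149) and lost its call without luminal array 3 (0.64, 0.0586) or SSKO basal array 2 (0.75, 0.0532).

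Secreted and surface proteins of basal cells showed the same direction. Of 16 tested, 15 were higher in SSKO basal cells and 11 had wide gaps, with a median of 2.76. The cytokine Il17b was 12.39, 12.40 and 12.06 in SSKO basal and 6.77, 6.75 and 6.62 in luminal arrays. Its gap of 5.57 (SE 0.28, 47.6-fold, adjusted p = 9.12e-08) came with luminal values that were close together, under or near the dim level of 6.74. The mucin-type glycoprotein Pdpn, podoplanin, was 12.39, 12.57 and 12.17 against 7.41, 6.59 and 7.79, a gap of 5.11 (SE 0.27, 1.29e-07), and follistatin, Fst, an activin antagonist, was 12.66, 12.66 and 12.49 against 7.59, 7.02 and 8.30, a gap of 4.97 (SE 0.26, 1.12e-07). No luminal array came within 4 log2 units of an SSKO array in these 3 genes. At the other end, the cytokine receptor Lifr was 11.60, 11.86 and 11.91 against 11.58, 11.61 and 11.92, a narrow gap of 0.08 (95% interval -0.39 to 0.56) with overlapping groups. Wnt6, a Wnt ligand, was 8.66, 8.91 and 8.82 against 8.28, 8.10 and 8.04 and had a gap of 0.66 (SE 0.16, adjusted p = 0.00734). Procr, the protein C receptor that marks a subset of basal cells and also endothelium, was 10.16, 8.55 and 11.02 against 7.70, 6.52 and 7.39, with a gap of 2.71 (SE 0.53, 0.00167) that was 1.35 (adjusted p = 0.0671) without SSKO basal arrays 1 and 3.

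**Figure D2:**
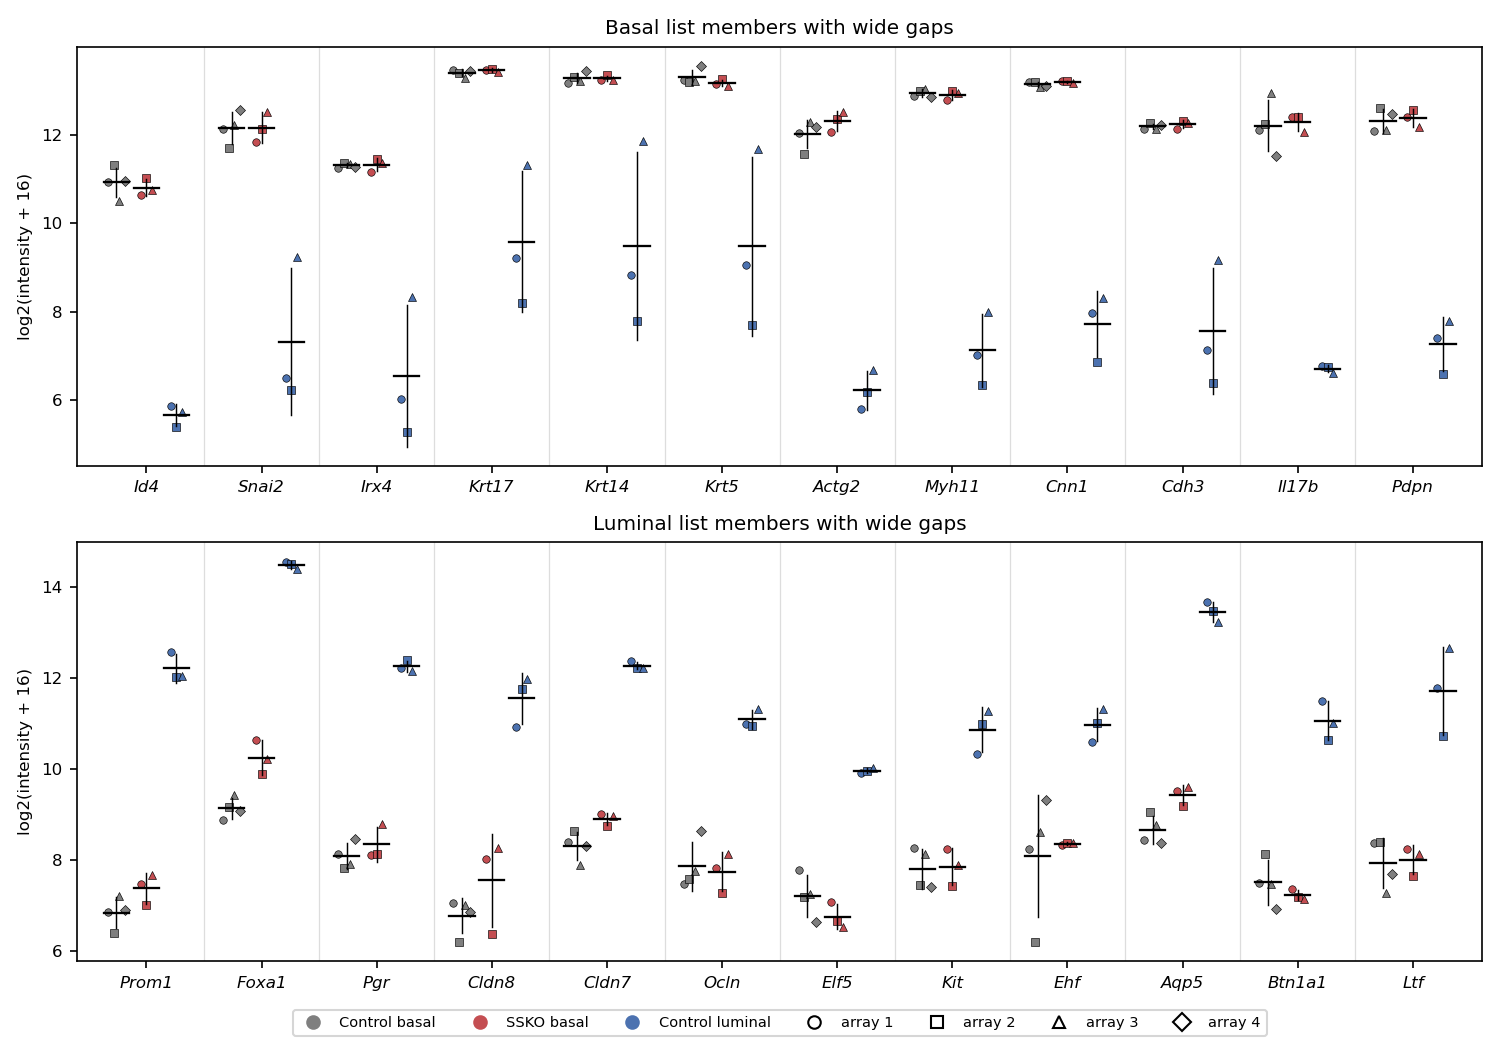
Log2(intensity + 16) in each array for the 3 members of the widest gap in 4 of the luminal lists (lower panel) and for 12 basal genes of wide gap (upper panel), with 1 point per array, a horizontal bar for the group mean and a vertical line for its SD (control basal n = 4, SSKO basal n = 3, luminal n = 3). SSKO basal arrays do not overlap luminal arrays in any gene shown, and luminal array 3 stands well above the other luminal arrays for Snai2, Irx4, Krt17, Krt14, Krt5 and Cdh3.

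Markers of other cell types moved with the basal side of the comparison. All 11 fibroblast markers tested, of 12 listed, were higher in SSKO basal cells, 8 with wide gaps, against 19% and 4.53% of all genes. Their mean level was 10.14, 9.78 and 10.36 in SSKO basal arrays 1 to 3 against 7.65, 7.27 and 7.17 in luminal arrays 1 to 3. Periostin, Postn, a matrix protein, was 13.20, 13.06 and 13.31 against 8.66, 7.61 and 9.17, a gap of 4.71 (adjusted p = 5.76e-07), and the proteoglycan Lum was 9.85, 8.70 and 9.93 against 5.86, 5.82 and 5.31, a gap of 3.83 (2.64e-05). Neither gene overlapped between the groups. Of 8 pericyte markers tested, of 9 listed, 6 were higher in SSKO basal cells and 1, Notch3, was higher in luminal cells. The shares of all genes were 19% and 23.3%. The mean level of the pericyte list was 9.21 to 9.55 in SSKO basal against 8.35 to 8.57 in luminal arrays. The growth factor receptor Pdgfrb had a gap of 3.05 and the adhesion molecule Mcam one of 2.45. The part of fibroblasts and pericytes in the basal, matrix and contractile gaps was not tested. Control basal cells had a fibroblast median gap of 3.09, against 3.01 for SSKO basal cells.

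Endothelial markers rested on 2 of the 3 SSKO arrays. Of 12 tested, 6 passed, against 42.3% of all genes. The 6 were 5 higher in SSKO basal cells, against 19% of all genes, and 1, Vwf, higher in luminal cells. The mean level of the list was 10.76, 8.13 and 9.76 in SSKO basal arrays 1 to 3 against 8.45, 8.03 and 8.10 in luminal arrays. In control basal arrays 1 to 4 it was 9.83, 8.30, 8.74 and 8.58, with array 1 above SSKO basal array 3. The median gap of control basal cells for this list was 0.78. The junction gene Cldn5 was 11.72, 8.56 and 11.29 against 8.27, 7.84 and 7.34, a gap of 2.70 (adjusted p = 0.00731), and the receptor Kdr was 10.55, 7.27 and 9.74 against 7.10, 6.47 and 6.60, a gap of 2.46 (0.0230). For both, SSKO basal array 2 lay far below arrays 1 and 3. The 6 calls became 11 without SSKO basal array 2, 2 without SSKO basal array 1 or 3 or luminal array 3, and 1 without luminal array 2. The Kdr call ended without SSKO basal array 1 or 3 or luminal array 2 or 3 (adjusted p between 0.0572 and 0.0934). Without SSKO basal arrays 1 and 3, 0 of the 12 passed on the SSKO side by limma, the median gap went from 1.41 to -0.03, and Cldn5 and Kdr had gaps of 0.74 and 0.54 (adjusted p = 0.333 and 0.666). That fit keeps 1 SSKO array, which is assumed to vary like the other groups. The median gap of that fit was 3.21 over the 64 basal genes, against 3.18 with all arrays. Over the 61 luminal genes it was -2.25, against -1.98 with all arrays. The part of endothelial cells in the lineage gaps was not tested. The CD45-gated lineage was represented by 9 immune markers tested of 15 listed. Of these 4 passed, all higher in SSKO basal cells, where 42.3% of all genes passed and 19% were higher in SSKO basal cells. The median gap of the list was 0.15, and 6 of the 9 gaps were narrow. Its 2 largest gaps were those of the class II chain Cd74 (10.59, 10.05 and 9.0 against 6.77, 6.29 and 6.62, gap 3.32, adjusted p = 0.000345) and the lysozyme Lyz2 (1.59, 0.00280). Without SSKO basal arrays 1 and 3 the 4 immune calls became 2, and Lyz2 had a gap of 0.80 (adjusted p = 0.151). Of 7 adipocyte markers 3 were higher in SSKO basal and 2 in luminal cells, against 19% and 23.3% of all genes. The lipid carrier Fabp4 was 11.68, 9.12 and 10.52 against 8.78, 8.01 and 7.80, and the lipase Lipe had a gap of -1.68. The 5 adipocyte calls became 3 without SSKO basal array 2 or 3 or luminal array 1 or 2. Without SSKO basal arrays 1 and 3 the Fabp4 gap went from 2.24 (adjusted p = 0.0111) to 0.92. Of 8 skeletal muscle markers 1 passed, against 42.3% of all genes. It was Acta1 (0.56, 0.0250), and Myh2 had a gap of 0.39 (0.0680). Of 3 erythroid markers 1 passed, Alas2 (-0.44, 0.0130), against the same share, and Klf1 had a gap of 0.20. The Acta1 call ended without any 1 of SSKO basal arrays 2 and 3 or luminal arrays 1 and 2 (adjusted p between 0.0522 and 0.108) and the Alas2 call without SSKO basal array 1 or 3 (0.0548 and 0.0505).

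On the luminal side, the hormone-sensing genes Prom1 and Foxa1 had the widest gaps of the lineage list members that were higher in luminal cells. Of 12 hormone-sensing genes tested, 10 were higher in luminal cells and 6 had wide gaps, with a median gap of -1.82, and 0 were higher in SSKO basal cells. Prom1, a surface glycoprotein of hormone-sensing cells, was 7.47, 7.0 and 7.67 in SSKO basal and 12.58, 12.02 and 12.06 in luminal arrays. It was 28.6-fold higher in luminal cells (gap -4.84, SE 0.24, adjusted p = 8.85e-08). The pioneer factor Foxa1, which opens chromatin for the oestrogen receptor, was 10.64, 9.89 and 10.23 against 14.55, 14.52 and 14.40, 18.8-fold higher in luminal cells (gap -4.24, SE 0.20, 5.95e-08). The progesterone receptor, Pgr, was 8.12, 8.14 and 8.80 against 12.23, 12.40 and 12.15, 15.0-fold higher in luminal cells (gap -3.91, SE 0.21, 1.49e-07). The arrays of the 2 groups were more than 3 log2 units apart in each of these 3 genes. The oestrogen receptor Esr1 was 8.82, 8.64 and 9.28 against 11.81, 11.72 and 12.42, a gap of -3.07 (SE 0.36, 4.26e-05), and Wnt4, a Wnt ligand that acts downstream of progesterone, had a gap of -2.25. The small gaps belonged to genes with roles outside hormone sensing as well. Gata3, a luminal transcription factor, was 11.57, 11.66 and 11.69 against 12.13, 12.23 and 12.11, a narrow gap of -0.52 (95% interval -0.81 to -0.23, adjusted p = 0.00771) without overlap, and -0.52 in control basal cells. Tnfsf11, the RANK ligand, was 8.91, 9.40 and 9.14 against 9.36, 9.73 and 8.92, a narrow gap of -0.19 (95% interval -0.73 to 0.36) with overlapping groups.

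Luminal keratins and junction genes were lower in SSKO basal cells in 19 of 20 cases, 13 of them by a wide gap, with a median of -2.61. The claudin Cldn8 was 8.02, 6.38 and 8.27 in SSKO basal and 10.92, 11.77 and 11.99 in luminal arrays, a gap of -4.0 (SE 0.45, adjusted p = 3.54e-05). Cldn7 was 9.01, 8.74 and 8.96 against 12.38, 12.23 and 12.23, a gap of -3.37 (SE 0.18, 1.22e-07), and occludin, Ocln, was 7.82, 7.29 and 8.14 against 11.0, 10.96 and 11.33, a gap of -3.35 (SE 0.30, 5.81e-06). SSKO basal array 2 was the lowest of the 3 for each of these tight junction genes. The simple keratins differed from each other in the size of the gap. Krt7 had a gap of -3.20, Krt19 of -2.14, Krt18 of -2.13 and Krt8 of -0.84 (95% interval -1.11 to -0.57). Krt8 was 13.07, 13.22 and 13.09 against 13.94, 14.0 and 13.96, 1.79-fold higher in luminal cells (adjusted p = 0.000221), although it pairs with Krt18, which was 4.36-fold higher. E-cadherin, Cdh1, the adhesion molecule of all epithelia, was 12.35, 12.34 and 12.45 against 12.90, 12.83 and 13.15, a narrow gap of -0.58 (95% interval -0.89 to -0.27, 0.00649), and Lsr, a protein of tricellular junctions, had a narrow gap of -0.72. Cldn1 was 9.97, 9.67 and 9.48 against 9.52, 10.34 and 10.86, with overlapping groups and a gap of -0.53 (adjusted p = 0.466).

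The luminal progenitor list was the least uniform in direction. All 12 tested passed, 9 higher in luminal cells and 3 higher in SSKO basal cells, with a median of -1.88. The alveolar factor Elf5 was 7.07, 6.67 and 6.54 in SSKO basal and 9.91, 9.96 and 10.03 in luminal arrays, 9.24-fold higher in luminal cells (gap -3.21, SE 0.25, adjusted p = 1.85e-06). The receptor Kit was 8.24, 7.42 and 7.89 against 10.33, 11.0 and 11.28, a gap of -3.02 (SE 0.31, 1.63e-05), and the ETS factor Ehf was 8.33, 8.38 and 8.38 against 10.60, 11.02 and 11.31, a gap of -2.61 (SE 0.60, 0.00428). No SSKO array reached the luminal range in these 3. Aldh1a3, an aldehyde dehydrogenase, and Stat5a, the transducer of prolactin signals, had gaps of -2.46 and -1.91. The members higher in SSKO basal cells were Itgb3, a gate marker, the collagen-binding integrin Itga2 at 1.32, and Hey1, a Notch target, at 9.96, 9.50 and 9.43 against 8.70, 8.15 and 8.80 (1.08, SE 0.24, 0.00366). The luminal gate excluded CD61-positive cells, and CD61 is the product of Itgb3. Sox9 was 12.05, 12.39 and 12.36 against 12.76, 12.73 and 12.94, a narrow gap of -0.54 (95% interval -0.87 to -0.21, adjusted p = 0.0126), and lost its call without SSKO basal array 1 (-0.43, adjusted p = 0.0574).

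Milk and secreted proteins gave a mixed picture with large spread. Of 17 tested, 7 passed, against 42.3% of all genes, 6 higher in luminal cells and 1 in SSKO basal cells. The other 10 did not pass, and the median gap was -1.42. The water channel Aqp5 was 9.53, 9.19 and 9.60 in SSKO basal and 13.67, 13.48 and 13.23 in luminal arrays, 16.2-fold higher in luminal cells (gap -4.02, SE 0.20, adjusted p = 8.85e-08). The milk fat globule protein Btn1a1 was 7.36, 7.19 and 7.14 against 11.51, 10.65 and 11.03, a gap of -3.83 (SE 0.28, 1.29e-06), and lactoferrin, Ltf, was 8.24, 7.65 and 8.15 against 11.78, 10.73 and 12.66, a gap of -3.71 (SE 0.44, 4.71e-05). The SSKO values of these genes lay within 1 log2 unit of each other. The casein Csn1s1 was 8.54, 6.16 and 5.34 in SSKO basal and 10.66, 12.07 and 7.47 in luminal arrays, with overlapping groups and a gap of -3.38 (SE 1.46, adjusted p = 0.0872). It passed without luminal array 3, the lowest luminal array, at -4.68 (adjusted p = 0.0260), and without control basal array 4, which changes only the shared estimate of the spread (0.0399). Csn2 had a gap of -1.93 (SE 1.37, 0.303) and Csn3 one of -2.16 (SE 0.24, 3.38e-05). Glycam1, a mucin of milk that is also made by endothelium of lymph node venules, was 16.18, 7.45 and 15.25 against 7.66, 7.32 and 7.52. It was high in the same SSKO basal arrays, 1 and 3, as the endothelial markers, and did not pass over the 3 arrays (5.46, SE 2.17, 0.0642), while it passed without SSKO basal array 2 (8.22, adjusted p = 0.00265) or control basal array 1 (0.0281). Wap, whey acidic protein, lay between 6.66 and 7.08 in all 6 arrays, near the dim level of 6.74. Its gap was narrow at 0.05 (95% interval -0.31 to 0.42). Mfge8, a milk fat globule protein, was 12.63, 12.68 and 12.52 against 12.46, 12.14 and 12.50, a narrow gap of 0.25 (95% interval -0.18 to 0.67). Lipocalin 2, Lcn2, was the member higher in SSKO basal cells, by 0.94 (SE 0.13, 0.000127).

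**Figure D3:**
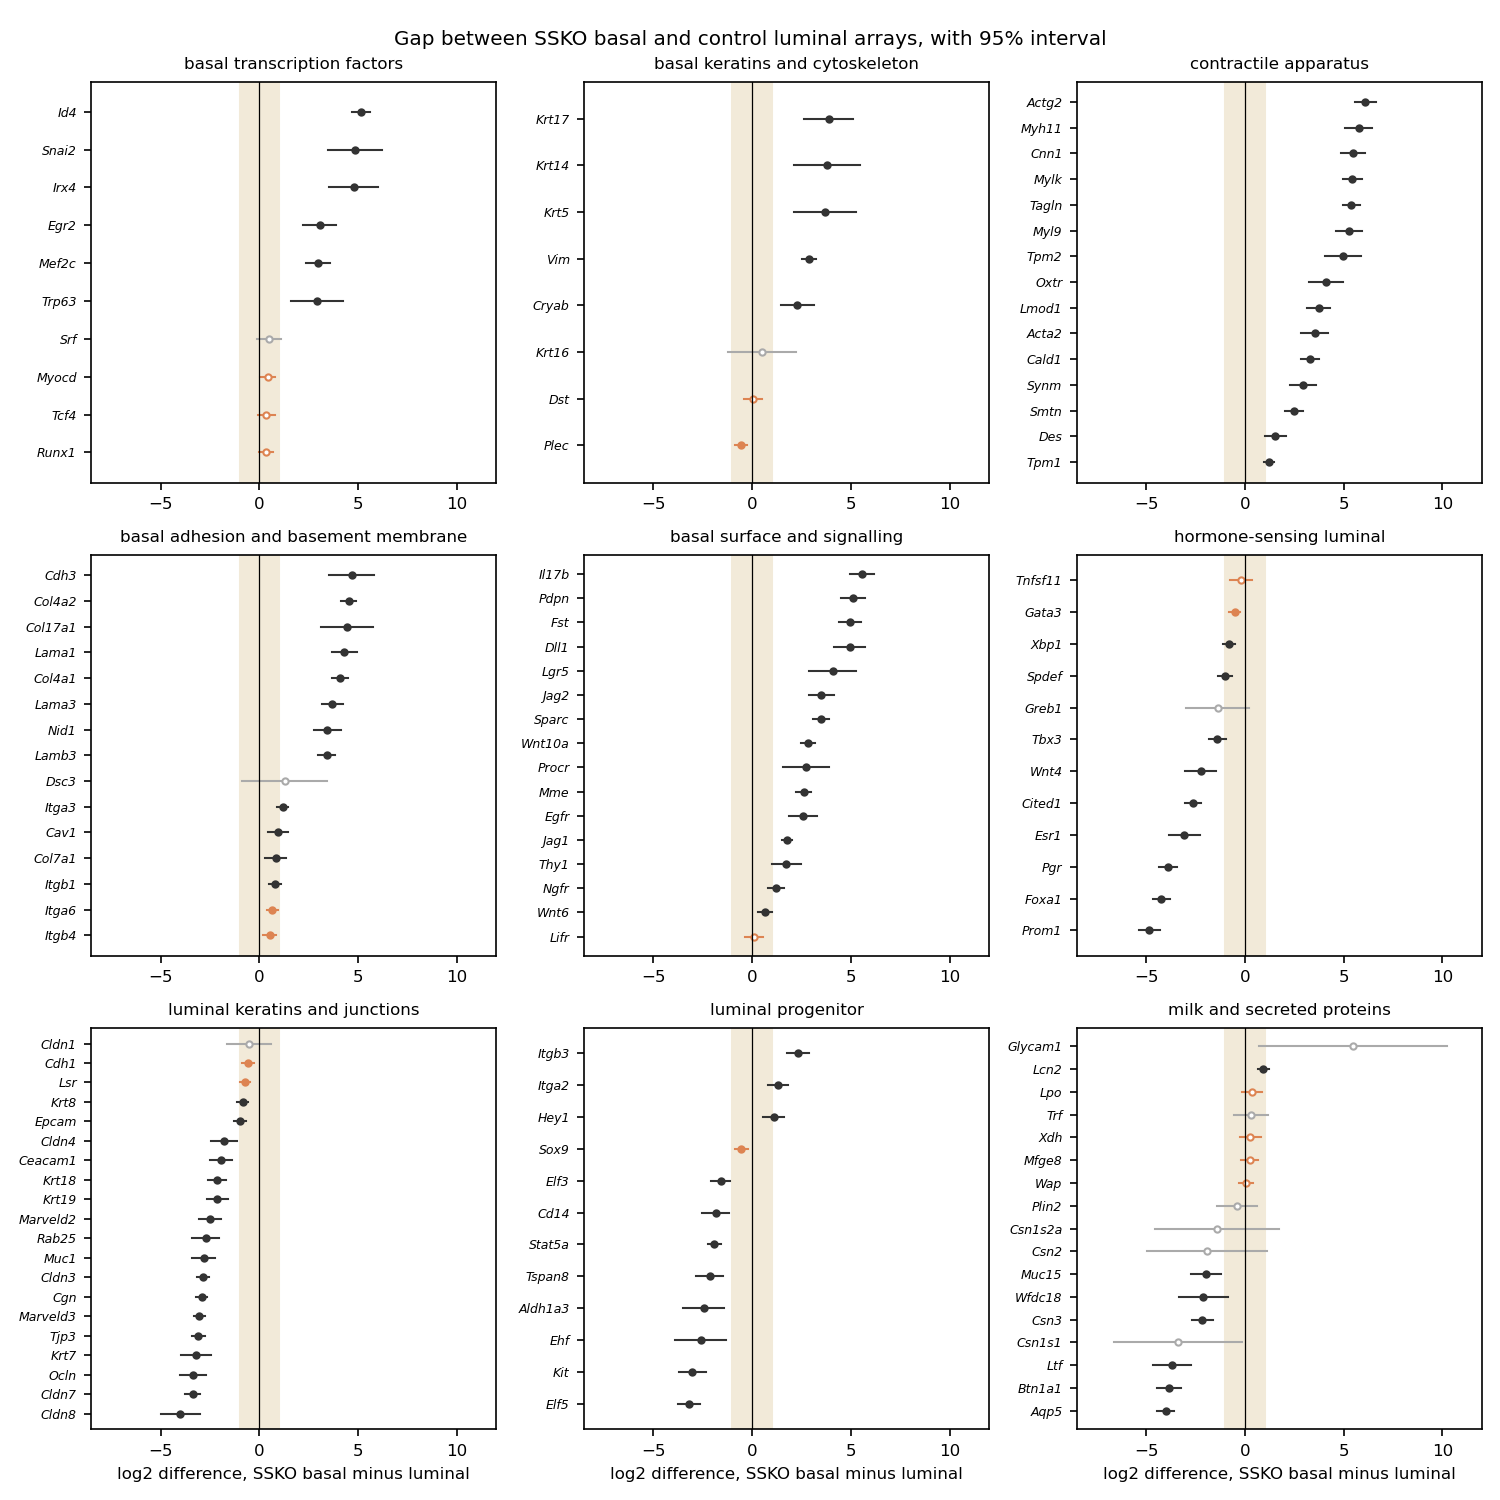
Gap of every tested lineage gene, SSKO basal minus luminal mean on the log2 scale, with its 95% interval from the limma fit, in 9 panels by list and ordered by size. Filled points passed at an adjusted p under 0.05, open points did not, and orange points have narrow gaps, with intervals wholly inside the shaded band from -1 to 1. Contractile genes lie furthest to the right, up to 6.08 for Actg2, and Prom1 lies furthest to the left at -4.84.

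Gaps were narrow for 17 of the 125 lineage genes, against 63.8% of all genes. The count behind that share depends on the filter on dim probe sets. Of the 17 lineage genes, 7 also passed the test, so the levels differed by a small amount. They were Plec, Itga6, Itgb4, Gata3, Cdh1, Lsr and Sox9, with sizes from 0.52 to 0.72 log2 units. The other 10 narrow gaps did not pass, namely Myocd, Runx1, Tcf4, Dst, Lifr, Tnfsf11, Wap, Mfge8, Xdh and Lpo. Their intervals hold differences of up to 2-fold, so they do not show equal levels. Wap also lay near the dim level of 6.74 in both groups, where changes come out too small. A further 11 lineage genes did not pass and had intervals too wide for either statement, among them Krt16, Cldn1, Greb1 and the caseins Csn1s1, Csn1s2a and Csn2. The narrow genes came from every one of the 9 lists except the contractile apparatus.

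Wnt genes lay on both sides, and ligands and receptors were each found on either side. Of 45 tested, 32 passed, 25 higher in SSKO basal cells and 7 in luminal cells, against 42.3% of all genes. Wide gaps numbered 21 and narrow ones 13, against 6.92% and 63.8% of all genes, and the median was 0.66. The targeted gene Pygo2 (-2.05, against 0.29 in control basal cells) is counted among the 7 and among the 21. Nkd1, an intracellular antagonist that Wnt signalling itself induces, was 10.36, 10.59 and 10.17 in SSKO basal and 6.13, 5.02 and 5.51 in luminal arrays, a gap of 4.82 (SE 0.26, 28.2-fold, adjusted p = 1.42e-07). The secreted antagonist Wif1 was 11.0, 11.49 and 10.57 against 6.64, 5.96 and 6.26, a gap of 4.73 (SE 0.31, 5.77e-07). The luminal means of both lay under the dim level of 6.74, at 5.55 and 6.29. Axin2, a feedback target that is read as a sign of canonical signalling, was 8.98, 9.96 and 9.15 against 5.94, 6.10 and 6.54, a gap of 3.17 (SE 0.25, 2.13e-06) beside 2.99 in control basal cells. The R-spondin receptor Lgr5 had a gap of 4.08 and the repressor Tcf7l1 one of 2.67. Pygo1, the paralog of Pygo2, was 8.85, 9.13 and 8.75 against 6.22, 6.45 and 6.25, a gap of 2.60 (SE 0.13, 9.16e-08) beside 2.66 in control basal cells. The ligands Wnt7b, Wnt4 and Wnt5a were higher in luminal cells, with gaps of -2.43, -2.25 and -2.17, while the ligands Wnt10a, Wnt11 and Wnt6 were higher in SSKO basal cells, with gaps of 2.82, 2.65 and 0.66. Among the receptors, Fzd7 and Fzd1 were higher in SSKO basal cells, by 2.75 and 2.67, and Fzd10 and Lrp5 were higher in luminal cells, with gaps of -1.63 (limma adjusted p = 0.000779) and -0.64 (0.00487). Apc, a scaffold of the complex that marks beta-catenin for destruction, was also higher in luminal cells, with a gap of -1.37 (adjusted p = 2.45e-05). Ctnnb1, beta-catenin, was 12.70, 12.78 and 12.58 against 12.70, 12.78 and 12.61, a narrow gap of -0.01 (95% interval -0.28 to 0.26), and the Pygo2 partners Bcl9 and Bcl9l had narrow gaps of 0.26 and -0.06.

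Of 23 Notch genes tested, 13 passed, 9 higher in SSKO basal cells and 4 in luminal cells, against 42.3% of all genes. Narrow gaps numbered 12, against 63.8% of all genes, and the median was 0.43. The ligand Dll1 was 11.29, 11.54 and 11.72 in SSKO basal and 6.39, 5.75 and 7.62 in luminal arrays, a gap of 4.93 (SE 0.36, adjusted p = 1.34e-06). The ligand Jag2 was 10.96, 11.24 and 10.72 against 7.12, 6.99 and 8.29, a gap of 3.51 (SE 0.30, 3.59e-06), and Jag1 had a gap of 1.74. In Dll1 and Jag2 luminal array 3 was again the highest luminal array, below every SSKO array. The receptor Notch3 was 9.08, 8.74 and 9.26 against 10.95, 10.76 and 11.23, a gap of -1.95 (SE 0.19, 9.27e-06), and the target Hes1 had a gap of -1.28 (SE 0.22, 0.000691). The target Hey1, given with the progenitor genes, was higher in SSKO basal cells by 1.08, and the ligand Dll4 did not pass (0.88, adjusted p = 0.137).

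**Figure D4:**
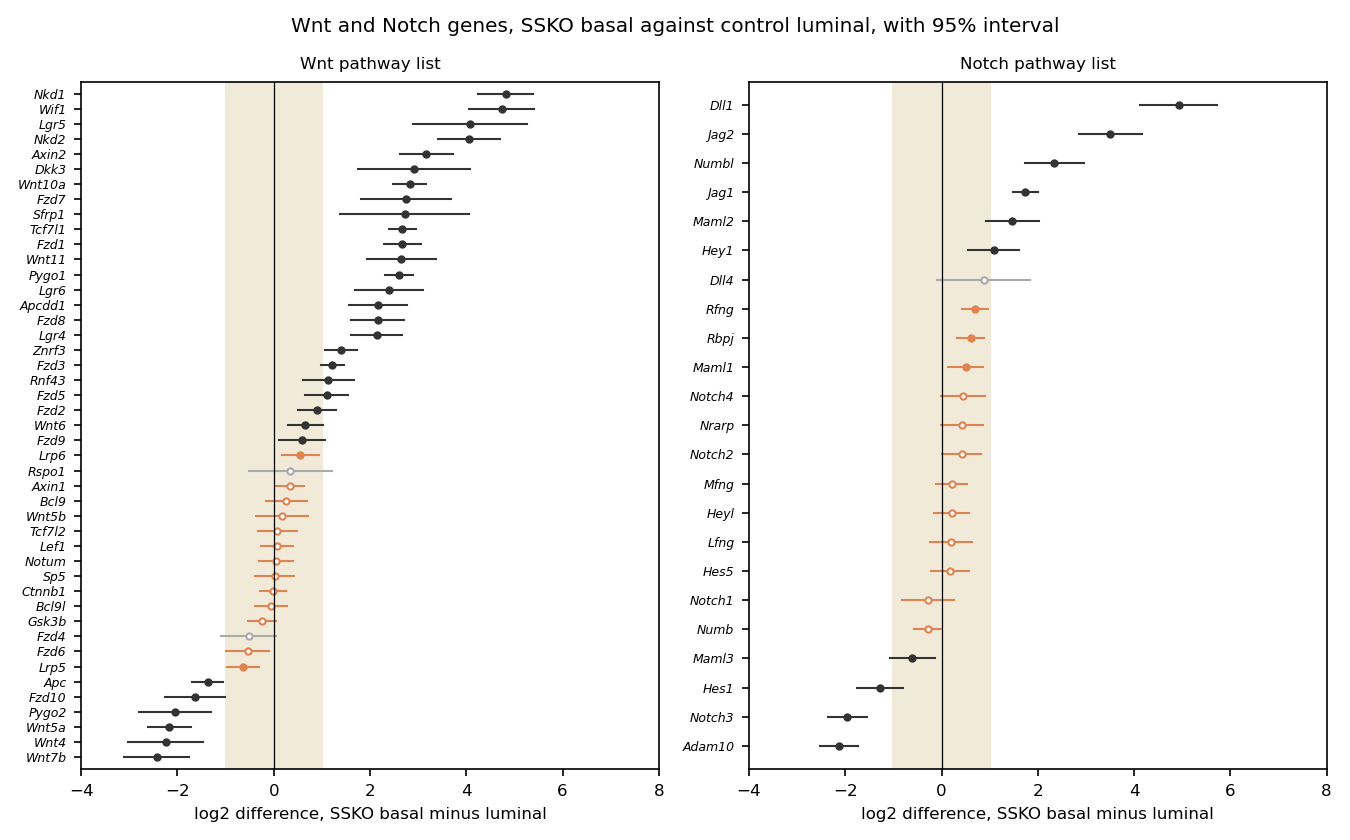
Gap of every tested Wnt (left) and Notch (right) gene, SSKO basal minus luminal mean on the log2 scale, with its 95% interval. Filled points passed at a limma adjusted p under 0.05, open points did not, and orange points have intervals inside the shaded band from -1 to 1. Nkd1 and Wif1 lead the Wnt genes on the basal side and Wnt7b on the luminal side, and Dll1 leads the Notch genes while Adam10 and Notch3 are lowest.

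Of 23 cell cycle genes tested, 5 passed, 3 higher in SSKO basal cells and 2 in luminal cells, against 42.3% of all genes, with a median of -0.06. The cyclins Ccnd2 and Ccne1, which act in G1, were 11.74, 11.60 and 11.49 against 7.80, 7.21 and 9.55 and 9.07, 9.26 and 9.18 against 7.32, 8.17 and 7.60, with gaps of 3.42 (SE 0.48, adjusted p = 0.000165) and 1.47 (SE 0.19, 8.57e-05). The proliferation marker Mki67 had a gap of -0.24 (adjusted p = 0.875). Of 13 interferon response genes tested, 7 passed, 4 higher in SSKO basal cells and 3 in luminal cells, against 42.3% of all genes, with a median of 0.33. The 4 were Ifit1 (1.50, limma adjusted p = 0.0442), Ifit3 (1.32, 0.0356), Ifit2 and Irf7. The Ifit1 and Ifit3 calls ended in several of the fits without 1 array. Named next are 2 of the 3 higher in luminal cells. The GTPase Iigp1 was 9.94, 8.31 and 9.52 against 10.30, 11.98 and 10.68, a gap of -1.73 (adjusted p = 0.0223), and the protease Usp18 was 8.52, 8.52 and 8.76 against 9.88, 10.16 and 10.91, a gap of -1.72 (0.00356). The Iigp1 call ended without SSKO basal array 2 or luminal array 2 (0.0917 each), and the 7 calls became 4 without luminal array 1 or 2.

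Ranked over all genes, contractile and matrix genes headed the SSKO basal side. The 8 largest rises without overlap were those of Actg2, Kcnmb1, Fmod, Reln, Myh11, Igfbp3, Il17b and Cnn1. Kcnmb1, the beta subunit of the calcium-activated potassium channel of smooth muscle, was 11.34, 11.45 and 11.35 in SSKO basal and 5.34, 5.39 and 5.53 in luminal arrays (62.1-fold, gap 5.96, SE 0.18, adjusted p = 1.54e-08). The matrix proteoglycan Fmod and the secreted glycoprotein Reln had gaps of 5.91 and 5.87, and the growth factor binding protein Igfbp3 one of 5.71. The luminal means of Kcnmb1, Fmod and Reln, at 5.42, 5.80 and 5.63, lay under the dim level.

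The luminal side was headed by genes of varied function. The 8 largest were Aoc1, Olfm4, Cdcp3, Nrxn3, Cyp3a57, Dpep2, Dkkl1 and Ido1, with gaps from -6.78 to -5.47. The diamine oxidase Aoc1 was 7.40, 7.40 and 12.18 in SSKO basal and 14.99, 16.31 and 16.01 in luminal arrays (SE 1.23, adjusted p = 0.00102). SSKO basal array 3 was far above arrays 1 and 2. Ido1, a tryptophan-degrading enzyme, showed the same layout at 6.67, 6.61 and 8.92 against 12.22, 12.98 and 13.40 (adjusted p = 2.58e-05). Olfm4, a secreted olfactomedin, was 6.85, 7.36 and 7.50 against 14.14, 14.62 and 11.51, with luminal array 3 the lowest luminal array. The neurexin Nrxn3 was 7.30, 7.05 and 8.23 against 13.04, 13.17 and 13.45 and Cdcp3 was 8.23, 8.45 and 8.50 against 13.85, 14.62 and 15.18, both without overlap. In all 8 genes the control basal gap was also large, from -5.73 for Dpep2 to -6.68 for Aoc1.

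Each gap was set beside that of control basal cells to the same luminal arrays. The 2 comparisons share the luminal arrays, so their difference is tested as SSKO basal against control basal. Control basal cells differed from luminal cells in 7001 genes (44.3%), 3114 (19.7%) higher in control basal and 3887 (24.6%) higher in luminal cells, and SSKO basal differed from control basal cells in 6 (0.0379%). With the SSKO gap first, list medians were 2.95 and 2.95 for basal transcription factors, 2.59 and 2.37 for basal keratins and cytoskeleton, 4.12 and 4.28 for contractile genes, 3.41 and 3.40 for adhesion and basement membrane, and 2.76 and 2.79 for basal surface and signalling genes. On the luminal side they were -1.82 and -1.83 for hormone-sensing genes, -2.61 and -2.83 for keratins and junctions, -1.88 and -1.56 for progenitor genes, and -1.42 and -0.09 for milk and secreted proteins. The milk median of -1.42 is the gap of Csn1s2a, which did not pass (limma adjusted p = 0.478). No milk list member differed between SSKO and control basal cells, and the mean level of that list ran from 8.74 to 10.55 in control basal arrays. The 6 genes were Pygo2, AW112010, Cited1, Fgb, Itih2 and Tspan1, and Cited1 was the only lineage list member among them.

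For these genes the SSKO level lay between the control basal and the luminal level, apart from Pygo2. Cited1, a transcriptional co-regulator of hormone-sensing cells, was 8.25, 7.97, 7.96 and 8.22 in control basal arrays 1 to 4, 9.97, 9.43 and 9.56 in SSKO basal arrays 1 to 3 and 12.57, 11.97 and 12.32 in luminal arrays 1 to 3. None of the 3 groups overlapped. Its gap to luminal cells was -2.63 in SSKO and -4.19 in control basal cells, and the gaps differed by 1.56 (SE 0.18, limma adjusted p = 0.0103). AW112010, an interferon-inducible transcript, had gaps of -2.42 and -4.92 (difference 2.51, SE 0.24, 0.00447), and the tetraspanin Tspan1 of -3.87 and -5.37 (1.50, SE 0.17, 0.0103). The fibrinogen chain Fgb had gaps of -2.57 and -4.88 (2.31, SE 0.32, 0.0443) and the trypsin inhibitor chain Itih2 of -1.88 and -4.10 (2.22, SE 0.20, 0.00431). Even so, all 5 remained well below the luminal level, by 1.88 to 3.87 log2 units, each with an SSKO to luminal adjusted p of at most 0.000113. The count of 6 was 1 without SSKO basal array 3, 2 without control basal array 2, 27 without SSKO basal array 2 and 3 after quantile normalization. Itih2 kept its call without any 1 array. Cited1 lost its call without control basal array 2 (adjusted p = 0.0564) or SSKO basal array 3 (0.0662), Tspan1 without the same arrays (0.0564 and 0.0662), AW112010 without SSKO basal array 3 (0.0535), and Fgb and Pygo2 in most fits without 1 array.

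Of the 105 lineage genes with a called control gap, 58 had a smaller gap in SSKO basal cells. Called or not, the gap was smaller for 69 of 125 lineage genes and for 8168 of all 15815 genes, each close to an even split. The 2 sides differed, with 41 of 61 luminal genes and 28 of 64 basal genes. By luminal list it was 17 of 20 keratin and junction, 9 of 12 hormone-sensing, 7 of 12 progenitor and 8 of 17 milk genes. Members of a list come from the same arrays, and these counts were not tested. The largest reductions after Cited1 were those of Krt19, Foxa1, Cldn4 and Krt7, which are a description, since they were picked for this difference. Krt19 had a gap of -2.14 in SSKO and -3.57 in control basal cells, with levels of 9.87, 10.06, 10.28 and 10.71 in control basal, 11.49, 11.35 and 12.15 in SSKO basal and 13.70, 13.83 and 13.87 in luminal arrays. All SSKO arrays lay above all control basal arrays. Foxa1 had gaps of -4.24 and -5.35, Cldn4 of -1.78 and -2.75 and Krt7 of -3.20 and -4.14. None of these 4 differences passed (limma adjusted p = 0.0934 for Krt19 and 0.105 for Foxa1, and near 1 for the other 2). Krt19 passed without control basal array 4 or SSKO basal array 2 (0.0379 and 0.0427), and Foxa1 without SSKO basal array 2 (0.0249). In the other direction, gaps were larger in SSKO than in control basal cells for Des (1.54 and 0.72), Muc15 (-1.98 and -1.17), Procr (2.71 and 1.90), Csn3 (-2.16 and -1.38) and the mucin Muc1 (-2.82 and -2.28), all with adjusted p near 1 for the difference.

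**Figure D5:**
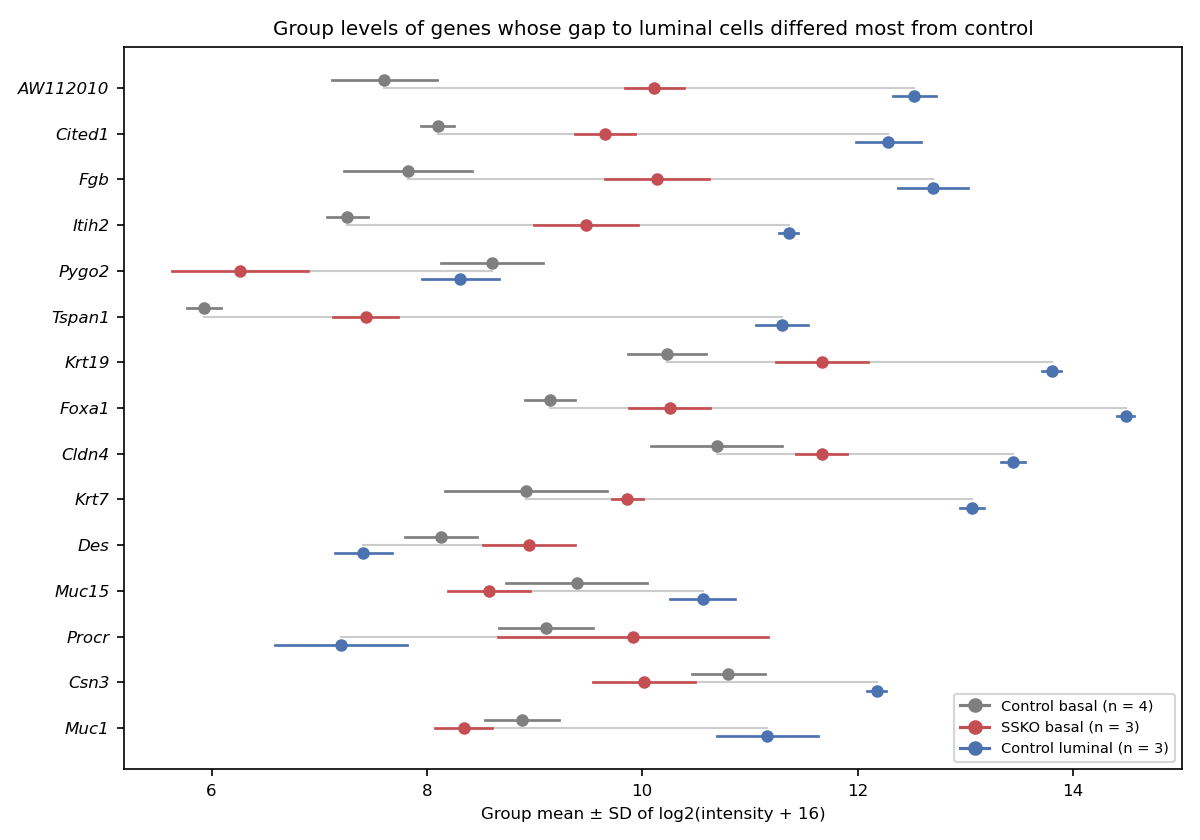
Group mean of log2(intensity + 16), with its SD as a horizontal line, in control basal (n = 4), SSKO basal (n = 3) and luminal arrays (n = 3) for the 6 genes that differed between SSKO and control basal cells and for the 9 further lineage genes whose gap to luminal cells was most reduced or most increased. In AW112010, Cited1, Fgb, Itih2, Tspan1, Krt19, Foxa1, Cldn4 and Krt7 the SSKO mean lies between the other means, and for Pygo2 it lies below both.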

How the data were processed

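Total RNA from sorted mouse mammary cells was measured on 10 Affymetrix arrays. The authors deposited 1 linear intensity per probe set and array. Per the submitters' processing notes, Affymetrix Expression Console 1.1 and PLIER 2.0 were used. Their steps, any normalization between arrays and the genome build are not given in the sources used here, and the number of arrays limits the precision.

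Of 28815 probe sets, 21780 had exactly 1 gene symbol, and the others were left unnamed. Values were taken as log2(intensity + 16), and the dimmest 25% of probe sets, with a mean under 6.74 across the arrays, were left out. The brightest probe set stood for a gene. A model with 3 group means over all 10 arrays was fitted with limma 3.58.1 in R 4.3.3 (lmFit, eBayes), two-sided, with Benjamini-Hochberg adjustment over 15815 genes and a threshold of 0.05. Steps were tested on simulated data. With 3 arrays against 3, an exact permutation test of 1 value cannot go below a two-sided p of 0.1, so list levels carry no test. No label says that array numbers pair the SSKO basal and luminal samples, so the main fit took them as unpaired. Deviations from the group means correlated at 0.09, 0.03 and 0.18 between arrays 1, 2 and 3 of the same number. The highest correlation with another number was -0.02, 0.12 and -0.01, so whether the numbers pair samples is not known. Figures were drawn with matplotlib 3.10.9. Alternatives were another pseudocount, filter, scaling, probe set rule, variance model or set of arrays, and each array left out.

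Members and lists were chosen with earlier results of these data known. The rule for named genes took Pygo2, the 5 sort markers, the 3 widest called and the 2 smallest gaps of each lineage list, the 2 largest of each other list, the 8 largest rises and falls, the genes called against control basal cells, and the 5 gaps most reduced and most grown. The largest rises and falls left out small RNA genes, gene models and olfactory or vomeronasal receptors. Genes named beyond it were chosen after their values were seen, namely Trp63, Mef2c, Egr2, Srf, Myocd, Vim, Cryab, Plec, Acta2, Oxtr, Myl9, Lama1, Lama3, Lamb3, Itga3, Dsc3, Col7a1, Esr1, Wnt4, Greb1, Krt8, Krt18, Lsr, Aldh1a3, Stat5a, Itga2, Csn1s1, Csn1s2a, Csn2, Glycam1, Lcn2, Xdh, Lpo, Axin2, Lgr5, Tcf7l1, Pygo1, Wnt5a, Wnt7b, Ctnnb1, Bcl9, Bcl9l, Jag1, Notch3, Hes1, Adam10, Wnt10a, Wnt11, Fzd1, Fzd7, Fzd10, Lrp5, Apc, Dll4, Mki67, Vwf, Ifit1, Ifit2, Ifit3 and Irf7.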

Additional observations from a re-analysis of the deposited data

Results flagged for a closer look

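In 5 of the 97 named genes and 1 of the 21 lists, 1 of the 4 control basal arrays lay far from the other 3, where chance gives about 1 in 20 groups. Control basal array 4 had the highest value for Krt5 (13.55) and Krt16 (11.09), for Fgb (8.71), and for the mean level of the basal keratin and cytoskeleton list (12.27). Control basal array 3 had the lowest value for Fst (12.37) and control basal array 2 the lowest for Postn (12.73).

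The SSKO and control gaps to luminal cells differed by the limma test in 6 genes. The difference, SSKO basal minus control basal, was -2.34 for Pygo2, 1.50 for Tspan1, 1.56 for Cited1, 2.22 for Itih2, 2.31 for Fgb and 2.51 for AW112010.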

How the results depend on the processing

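The SSKO basal to luminal count of 6682 genes lay between 5631 (without SSKO basal array 3 or luminal array 1) and 6857 when 1 array was left out. With the replicate number as a block it was 6893, of which 6487 were among the 6682, and the lineage count was 108 against 104. Without SSKO basal arrays 1 and 3, an alternative chosen after seeing the data, it was 3903, 1825 higher in SSKO basal and 2078 higher in luminal cells, with 1 SSKO array left. Narrow gaps numbered 6033 with the lowest 50% of probe sets dropped and 13946 with no filter, against 10090 in the main fit. Fewer or more genes were tested in these settings, but the count of 6682 calls moved less, to 5698 and 6781. The number of narrow gaps over all genes thus depends on how many dim genes are tested. The count of 6 between SSKO and control basal cells was 3 after quantile normalization and 1 to 27 when 1 array was left out. Of 84 named genes called between SSKO basal and luminal cells, 68 kept the call in all 22 settings, and no called gene changed sign. Centring the arrays moved the median of all genes from -0.03 to -0.11 and the share of calls higher in SSKO basal cells from 44.9% to 38.2%. The table used here holds no background estimate, so gaps to a group near the dim level of 6.74 have no known upper size.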
